A study of Saccharomyces cerevisiae with 12 samples.

Results

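The response of wild type *Saccharomyces cerevisiae* to 15 min in 0.4 M NaCl is described here from 6 of the 12 RNA-seq libraries of the study. The members were taken by their labels, and all genes of the deposited table were considered. The stressed cells were 3 cultures labelled as wild type for Spt4 and exposed to 15 min of 0.4 M NaCl, and the cells they were set against were 3 cultures of the same strain grown to log phase in YPD medium at 30 °C without stress. Both groups had the BY4741 background of mating type MATa, with ura3-delta 0, met15-delta 0, leu2-delta 0 and his3-delta 1, and the insertion SPT4-TAP::kanMX4, so that the strain called wild type had a TAP-tagged copy of the elongation factor gene *SPT4* and an untagged strain was not analysed here. The other 6 libraries came from the Spt4-AA mutant and entered only the common model. The replicates were 3 biological replicates per condition, and poly(A)-selected RNA was read as single-end reads of 50 bases. The 3 salt libraries held 13195631 to 14700912 counts and the 3 unstressed libraries 13943496 to 21909524 counts.

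High external salt draws water out of a yeast cell. The sensors Sln1 and Sho1 activate a kinase cascade that ends in the stress-activated protein kinase Hog1, which promotes glycerol accumulation and acts at the promoters of osmostress genes. A broader programme, the environmental stress response, accompanies many stresses in yeast. Its induced branch depends largely on the paralogous activators Msn2 and Msn4, which bind the stress response element, and its repressed branch holds the genes that build ribosomes, whose promoters often carry the PAC and RRPE motifs. The kinases TOR and protein kinase A keep the growth branch active in rich medium.

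The identity of the samples was checked on genes that mark the strain. Receptor, pheromone and transporter genes of **a** cells had summed counts of 15826, 15543 and 18454 in the salt libraries and 29177, 41705 and 33286 in the unstressed libraries. The genes of alpha cells summed to 705, 608 and 668 counts in the salt libraries and 734, 975 and 795 in the unstressed ones, most of them from the agglutinin gene *SAG1*, while the pheromone gene *MF(ALPHA)1* had at most 8 counts in any of the 6 libraries. *LEU2*, *MET17* and *URA3*, which the strain lacks, had at most 2 counts in each library. *HIS3*, of which the his3-delta 1 allele leaves a part, had between 304 and 1011 counts. The salt libraries of replicates 1 and 2 were closest to each other, with a chi-square of 7.26 per degree of freedom over genes, against 35.2 between replicates 1 and 3 and 19.5 between replicates 2 and 3. Between unstressed libraries the values were 8.07 to 18.3. Results were therefore also computed without salt replicate 3.

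The counts were spread over more genes upon osmostress. In the salt libraries 172, 185 and 212 genes held 50% of the counts, against 137, 124 and 128 genes in the unstressed libraries. The 10 genes with the most counts took 13.3%, 12.7% and 12.2% of the salt libraries and 15.9%, 16.8% and 16.2% of the unstressed ones, and *TDH3*, a glycolytic glyceraldehyde 3-phosphate dehydrogenase gene, was first in all 6. All values below are relative, since neither the amount of mRNA per cell nor a spike-in was measured, and a lower share of a gene's mRNA cannot be told apart from a rise of the rest. With edgeR's TMM scaling the median log2 fold change (log2FC, salt over no stress) of all genes tested was 0.03. Scaling to library totals alone moved that median by 0.34 and scaling to *ENO1* moved it by -0.52, and the share of altered genes that were higher became 65.4% and 26.6% in place of 49.5%.

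Of 6040 genes tested by edgeR's quasi-likelihood test, 37% were altered by at least 2-fold at a Benjamini-Hochberg adjusted p under 0.05, 18.3% being higher and 18.7% lower upon osmostress. These 3 shares are the background for every count below. Without salt replicate 3 the counts were 1107 higher and 1170 lower, against 1105 and 1129 with it. At 8-fold or more 241 genes were higher and 249 lower, and at 32-fold or more 84 were higher and 50 lower. The libraries of the groups overlapped for 8 of the altered genes, and they did not overlap for 4519 of all 6040 genes tested. The 54 lists of genes by function described below covered 255 of the genes that rose and 557 of those that fell, so that most of the rise lay outside them.

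**Figure D1:**
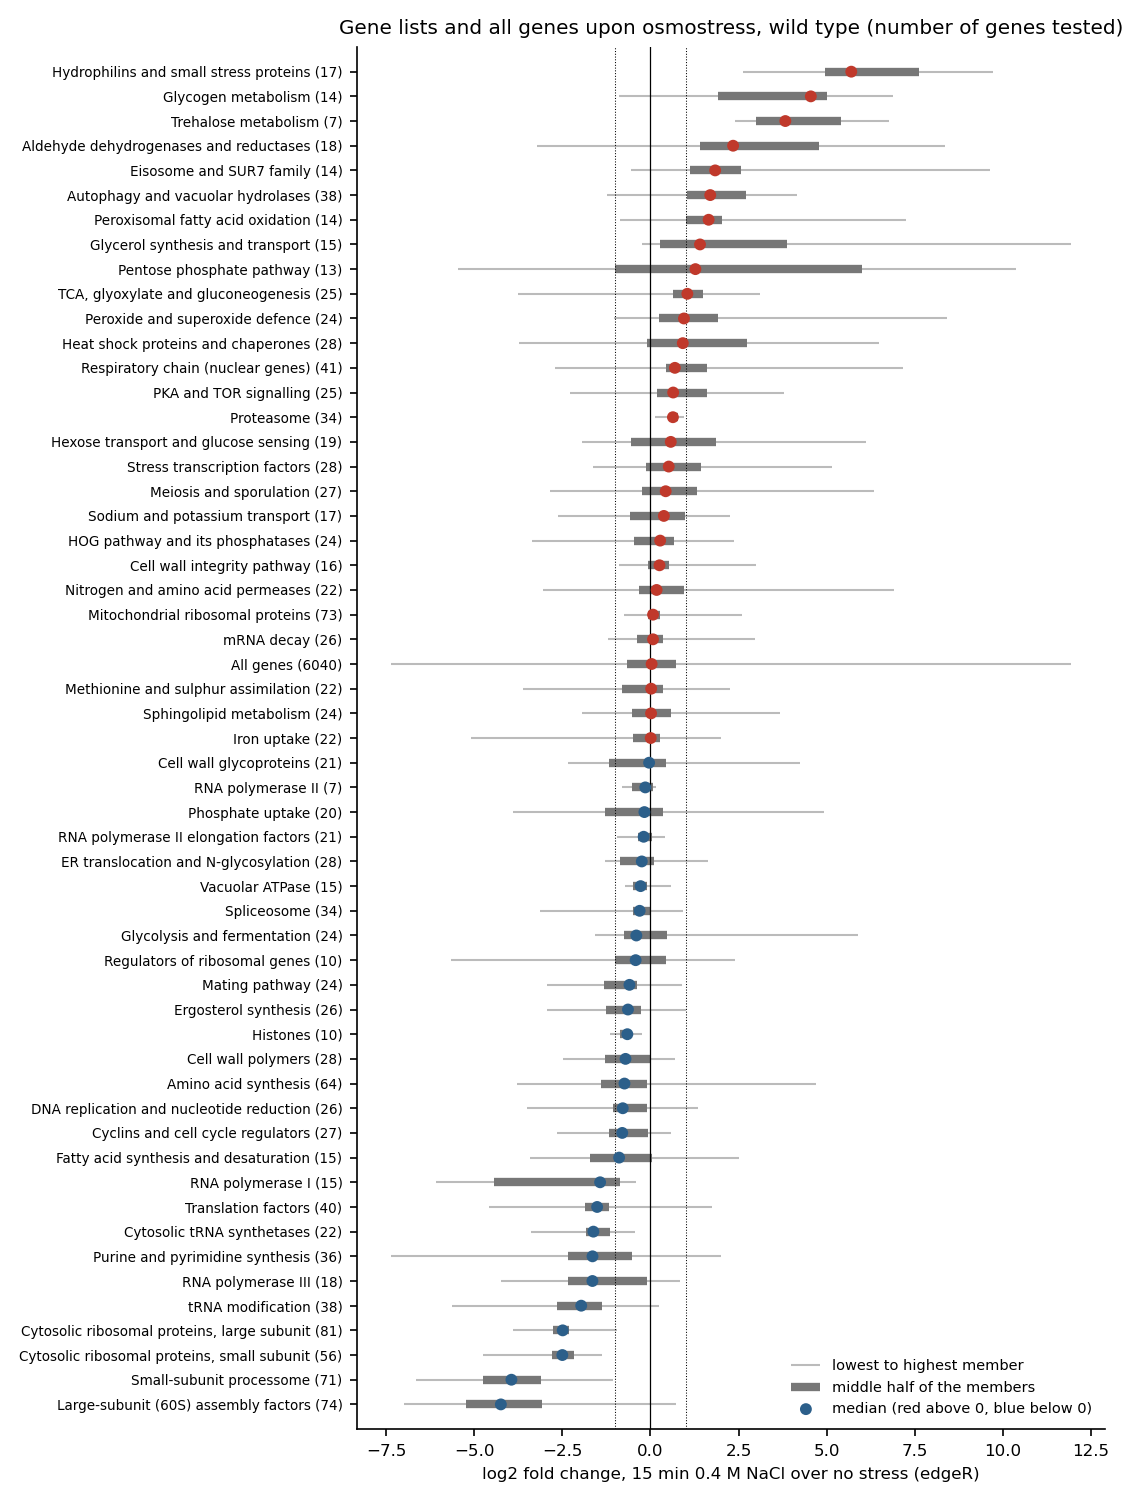
Log2FC (salt over no stress, edgeR) of each gene list and of all genes tested, with the number of genes tested in brackets, ordered by median (dot), with the interquartile range of the members (thick bar) and the lowest to highest member (thin line). Medians run from 5.70 for the hydrophilins and small stress proteins to -4.25 for the assembly factors of the large ribosomal subunit, against 0.03 for all genes, and dotted lines mark log2FC of -1 and 1.

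Glycerol is the osmolyte that yeast accumulates upon osmostress, and the genes that make and import it included the largest rise of the data set. Of 15 genes of glycerol synthesis and transport, 8 rose and 0 fell, with a median log2FC of 1.41. *STL1*, which encodes a glycerol/proton symporter of the plasma membrane, had 2340, 2454 and 2048 normalized CPM (counts scaled to library size with TMM factors) in the salt libraries and 0.592, 0.621 and 0.49 in the unstressed ones, a log2FC of 11.95 ± 0.18 (SE, adjusted p = 2.67e-15). *GPD1*, the glycerol 3-phosphate dehydrogenase gene that starts glycerol synthesis, had 7068, 7028 and 6270 CPM in the salt libraries and 105.5, 133.5 and 123.4 in the unstressed ones (log2FC 5.81 ± 0.17 (SE), adjusted p = 3.12e-13). The groups were far apart for both genes. *GPP2*, one of the glycerol 3-phosphatase genes that complete the pathway, had 3761, 3541 and 3421 CPM upon osmostress and 43.0, 47.3 and 48.9 without stress. Its partner *GPP1* rose as well (log2FC 1.58), while *GPD2*, the other glycerol 3-phosphate dehydrogenase gene, had a log2FC of -0.21 and an adjusted p of 0.102. The list took 2.39 ± 0.05% of all counts upon osmostress and 0.204 ± 0.005% without stress (SD, n = 3 each).

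The genes of storage and protective carbohydrates moved together. All 7 genes of trehalose metabolism and 13 of 14 genes of glycogen metabolism rose, with median log2FC of 3.83 and 4.55. *TPS1*, the trehalose 6-phosphate synthase gene, had 5287, 4950 and 4221 CPM in the salt libraries and 141.0, 187.2 and 165.5 in the unstressed ones. *TPS2*, the phosphatase of the same complex, averaged 5110 ± 675 CPM upon osmostress and 83.3 without stress, and *TSL1*, a regulatory subunit, averaged 5219 ± 568 and 47.9 (SD of the salt libraries, n = 3). The rise also took in the enzymes that break the sugar down: *NTH1*, the neutral trehalase, had 953.8, 929.7 and 825.7 CPM in the salt libraries and 64.3, 63.3 and 63.1 in the unstressed ones (log2FC 3.83 ± 0.10, SE, adjusted p = 1.06e-13). The same held for glycogen, where *GPH1*, the glycogen phosphorylase gene, rose by a log2FC of 5.89 and *PGM2*, the phosphoglucomutase gene that feeds glycogen synthesis from glucose 6-phosphate, by 6.87. *PGM1*, the minor phosphoglucomutase gene, was the one member of the glycogen list that did not rise, with a log2FC of -0.89. Genes of trehalose metabolism together held 1.98 ± 0.11% of the counts in the salt libraries, against 0.0469 ± 0.0016% in the unstressed libraries (SD, n = 3 each).

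Small hydrophilic proteins and chaperones protect membranes and proteins when water is lost. All 17 genes of the list of hydrophilins and small stress proteins rose, with a median log2FC of 5.70 and a lowest value of 2.62, and together they held 3.33 ± 0.02% of the counts upon osmostress and 0.0600 ± 0.0012% without stress (SD, n = 3 each). *HSP12*, a membrane-stabilising hydrophilin, had 5259, 4527 and 4470 CPM in the salt libraries and 5.40, 6.32 and 7.04 in the unstressed ones (log2FC 9.56 ± 0.26, SE, adjusted p = 1.73e-13). *RTC3* averaged 2898 ± 412 CPM upon osmostress and 3.35 without stress. *DDR2*, induced by many stresses, had 759.8, 747.3 and 698.7 CPM in the salt libraries and 0.888, 2.18 and 0.979 in the unstressed ones. Chaperones were divided: of 28 genes 14 rose and 3 fell. The Hsp70 gene *SSA4* had 760.4, 869.2 and 973.7 CPM in the salt libraries and 33.0, 30.0 and 32.5 in the unstressed ones, and the small heat shock gene *HSP42* rose by a log2FC of 6.48 ± 0.13. A pair of Hsp70 genes whose proteins work on nascent chains at the ribosome moved the other way. *SSB1* had 593.5, 525.0 and 473.5 CPM in the salt libraries and 6446, 7657 and 7156 in the unstressed ones, and *SSB2* had a log2FC of -2.75. A unique read of 50 bases can start at only 56.8% of the positions of either gene, so reads of the 2 near-identical genes may be divided between them unevenly.

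Defence against peroxides and reactive aldehydes formed a further group. *CTT1*, the cytosolic catalase gene, had 5604, 5119 and 4011 CPM upon osmostress and 12.2, 15.9 and 14.4 without stress. Of the 24 genes of peroxide and superoxide defence 11 rose and 1 fell, with a median log2FC of 0.95. *TSA2*, a thioredoxin peroxidase gene, rose by a log2FC of 3.83 ± 0.16, and the gene that fell was *GPX2*, a glutathione peroxidase gene, with 26.7, 27.7 and 34.4 CPM in the salt libraries and 60.9, 55.0 and 67.4 in the unstressed ones. Its fall was just past the 2-fold limit (log2FC -1.04) and did not reach it when salt replicate 1, salt replicate 2 or unstressed replicate 3 was left out, where the lowest size was -0.97. Of 18 genes of aldehyde dehydrogenases and reductases 14 rose and 1 fell, with a median log2FC of 2.35. *ALD3*, a cytosolic aldehyde dehydrogenase gene, averaged 4920 ± 479 CPM upon osmostress and 15.0 without stress (SD of the salt libraries, n = 3), and *ALD2* rose by 5.92. A unique read can start at 59.6% of the positions of both genes, which lie side by side and are near-identical in sequence. *ALD5*, a mitochondrial form, was the member that fell, with 15.55, 17.01 and 16.61 CPM upon osmostress and 160.9, 150.4 and 145.9 without stress. *ALD4*, another mitochondrial form, rose by a log2FC of 5.01, from an average of 79.4 CPM without stress to 2565 upon osmostress.

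The stress response element was looked for in the 500 bases before the start codon of each tested gene with a RefSeq entry (5726 genes, R64 genome), as CCCCT on either strand. It was present for 62.4% of the 1034 such genes that rose, for 24.0% of the 1074 that fell, and for 29.8% of those called in neither direction, beside 34.6% of all promoters. With 250 bases the shares were 43.0%, 9.50% and 15.1%. The share of genes that rose went up with the number of sites, being 10.4% of 3746 genes with 0 sites, 26.8% of 1501 genes with 1, 47.2% of 373 with 2, 56.8% of 81 with 3 and 84% of 25 with 4 or more. These windows can overlap a neighbouring gene, and a match is a description of the letters only. Of the 10 largest rises, 9 have a RefSeq entry, and all 9 had at least 1 site. The following windows of the R64 genome show sites of 5 of the genes described above, printed 5′ to 3′ in the direction of the gene with the element in capitals, which reads AGGGG where it lies on the other strand:
HSP12, chrVI:106810-106836, + strand: ggcatctgttaAGGGGatatgttgcaa
HSP12, chrVI:107013-107039, + strand: tagatctacagCCCCTggaaaatcgtt
CTT1, chrVII:654245-654271, + strand: cctctttttcaAGGGGatcaccggtaa
CTT1, chrVII:654490-654516, + strand: atttatcgtatCCCCTactgctacacg
DDR2, chrXV:231988-232014, - strand: gttcttctaatCCCCTttctctcctaa
TPS1, chrII:490736-490762, - strand: cgctgtttataAGGGGattgacgaggg
STL1, chrIV:1507819-1507845, + strand: ttcaattttgtCCCCTtcaacgctgct
In their 500 bases *TPS1* had 6 such sites, *HSP12* 5, *DDR2* 4, *CTT1* 3 and *STL1* 1, so the gene with the largest rise did not have the most sites. The 4 printed for *HSP12* and *CTT1* lie between 435 and 133 bases before the start codon. *ENA1*, an induced sodium pump gene, had 0 sites in this window.

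Among genes that handle glucose, those of glycolysis and fermentation were called in each direction at close to the share of all genes. Of 24 genes of glycolysis and fermentation 5 rose and 5 fell (20.8% each, beside 18.3% and 18.7% of all genes tested), with a median log2FC of -0.40. *GLK1*, the glucokinase gene, had 10191, 9293 and 8283 CPM in the salt libraries and 141.3, 189.8 and 167.9 in the unstressed ones, and *HXK1*, a hexokinase gene, had 4540, 4150 and 3880 CPM upon osmostress and 60.05, 81.50 and 71.65 without stress. *HXK2*, the hexokinase of growth on glucose, had a log2FC of -0.81 and was not called. *ENO2*, the enolase gene of growth on glucose, averaged 9077 ± 932 CPM in the salt libraries and 22290 in the unstressed ones (log2FC -1.30), and *ENO1*, the other enolase gene, had 4720, 4216 and 3902 CPM in the salt libraries and 2750, 3269 and 2900 in the unstressed ones (log2FC 0.53 ± 0.18, SE, adjusted p = 0.0156), which is under the 2-fold limit. A unique read can start at 76.4% of the positions of either enolase gene, and with library totals alone *ENO2* was not called. The list kept a large share of the libraries, with 15.0%, 14.1% and 13.9% of the counts upon osmostress and 14.9%, 15.9% and 15.4% without stress. The groups overlapped, with a difference of -1.09 percentage points (exact two-sided permutation test, p = 0.2), and without the 10 genes with the most counts the difference was 1.54.

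Of 19 genes of hexose transport and glucose sensing 7 rose and 3 fell, with a median log2FC of 0.58. *HXT5*, a transporter of moderate affinity, rose (1698, 1776 and 1575 CPM in the salt libraries, 22.6, 26.4 and 24.0 in the unstressed ones), and *HXT3*, a low-affinity transporter of growth on glucose, fell (547.5, 573.9 and 462.4 CPM upon osmostress, 1908, 2118 and 2119 without stress). *HXT7*, a high-affinity transporter, had a log2FC of 3.21, though a unique read can start at only 4.93% of its positions. In the pentose phosphate pathway, which makes NADPH and ribose 5-phosphate, 7 of 13 genes rose and 4 fell. *TKL2*, the minor transketolase gene, had 3914, 3713 and 3185 CPM in the salt libraries and 1.63, 3.00 and 3.30 in the unstressed ones, a log2FC of 10.38 ± 0.25 (SE, adjusted p = 5.98e-14), and *NQM1*, the minor transaldolase gene, averaged 2136 ± 172 CPM upon osmostress and 6.19 without stress. *RKI1*, the ribose 5-phosphate isomerase gene, fell (3.44, 2.71 and 3.23 CPM upon osmostress, 140.8, 133.9 and 136.9 without stress).

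In 45 pairs of genes for related enzymes or proteins, both members rose in 13 pairs, 1 rose and the other was not called in 16, and the members were called in opposite directions in 7. In 5 pairs 1 member fell alone, in 1 both fell and in 3 neither was called. The 7 divided pairs were transketolase, cytochrome c, 6-phosphogluconate dehydrogenase, pyruvate decarboxylase, glutathione peroxidase, pyruvate kinase and translation elongation factor 3. In cytochrome c, the electron carrier of the respiratory chain, *CYC7*, the isoform of low oxygen, had 133.9, 117.7 and 140.6 CPM in the salt libraries and 1.18, 0.932 and 0.612 in the unstressed ones, whereas *CYC1* had 8.18, 6.70 and 5.84 CPM upon osmostress and 41.8, 47.3 and 46.4 without stress. The pyruvate kinase gene *PYK2* rose (log2FC 3.05) and *CDC19*, the main pyruvate kinase gene, fell (log2FC -1.22). With library totals alone *TKL1*, *PDC1*, *CDC19* and *GPX2* were no longer called, and the 7 genes that rose in these pairs still were.

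**Figure D2:**
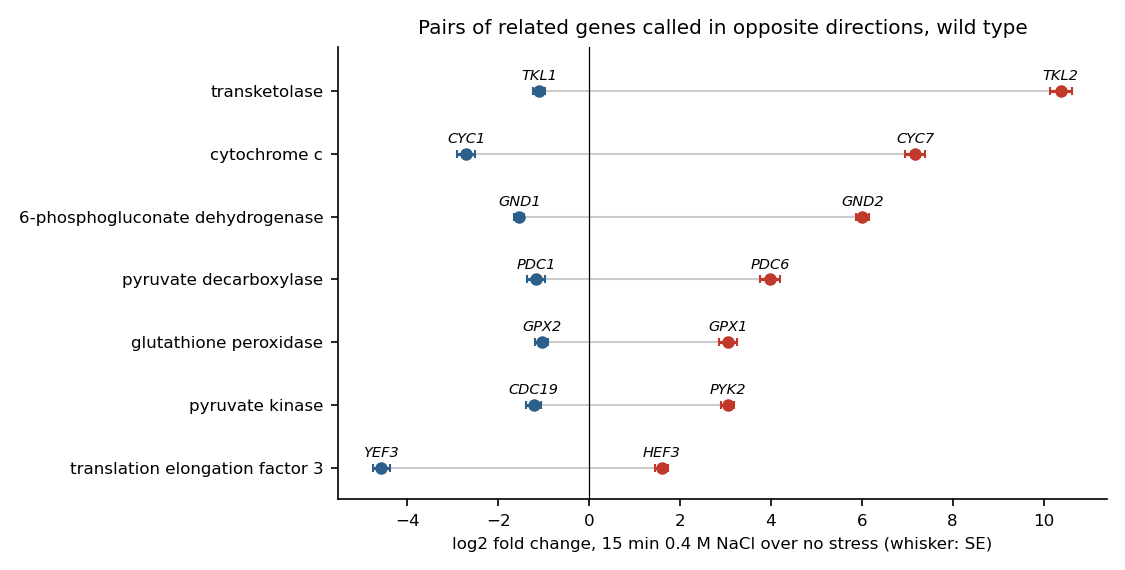
Log2FC (salt over no stress, edgeR, whiskers are SE) of both members of the 7 pairs called in opposite directions. The risers run from *HEF3* at 1.59 to *TKL2* at 10.38 and the fallers from *GPX2* at -1.04 to *YEF3* at -4.58.

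Genes of mitochondrial energy metabolism and of peroxisomal fatty acid oxidation were more often higher than lower. Of 25 genes of the TCA cycle, glyoxylate cycle and gluconeogenesis 14 rose and 1 fell, with a median log2FC of 1.05. *CIT1*, the mitochondrial citrate synthase gene, had 846.4, 906.3 and 922.6 CPM upon osmostress and 103.5, 105.3 and 99.8 without stress, and *PYC1*, a pyruvate carboxylase gene, rose by 2.58. Of 41 nuclear genes of the respiratory chain 16 rose and 1 (*CYC1*) fell, with a median of 0.69 that became 0.18 when scaled to *ENO1*. *NDE2*, an external NADH dehydrogenase gene, had 54.8, 52.8 and 39.6 CPM in the salt libraries and 1.33, 1.29 and 0.979 in the unstressed ones. Of 14 genes of peroxisomal fatty acid oxidation, which glucose represses, 10 rose and 0 fell. *POT1*, the thiolase gene of that pathway, had 31.16, 34.98 and 29.45 CPM upon osmostress and 0.148, 0.362 and 0.061 without stress.

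Proteins and organelles are broken down in the vacuole and by the proteasome, and these branches differed in size. Of 38 genes of autophagy and vacuolar hydrolases 29 rose and 1 fell, with a median log2FC of 1.70. *ATG39*, a receptor for selective autophagy of the nuclear envelope, had 23.4, 24.6 and 23.8 CPM in the salt libraries and 0.888, 1.29 and 1.77 in the unstressed ones, and *AMS1*, the vacuolar mannosidase gene, averaged 132.4 ± 4.7 CPM upon osmostress and 7.95 without stress (SD of the salt libraries, n = 3). None of 34 proteasome genes reached the 2-fold limit in edgeR or DESeq2 (0 of 34). Yet all 34 had a positive log2FC, between 0.12 and 0.96, and 33 passed the adjusted p of 0.05, where over all genes 2200 of 6040 were higher at that p. Their median log2FC of 0.64 became 0.98 with library totals alone and 0.11 when scaled to *ENO1*, so these counts depend on the scaling. The proteasome element, GGTGGCAAA on either strand, lay in the 500 bases of 27 of the 34 (79.4%), against 1.71% of all promoters. *RPN4*, which encodes the activator that binds it, had 115.4, 113.7 and 114.2 CPM upon osmostress and 63.8, 59.5 and 62.1 without stress (log2FC 0.89 ± 0.08, SE, adjusted p = 5.62e-08), also under the 2-fold limit, though with library totals alone its log2FC was 1.23 and it was called. Of 26 genes of mRNA decay 1 rose and 3 fell.

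Sodium is pumped out of the cell by P-type ATPases of the ENA cluster. *ENA1* had 1024, 1003 and 844.3 CPM in the salt libraries and 178.5, 220.7 and 195.6 in the unstressed ones (log2FC 2.27 ± 0.12, SE, adjusted p = 2.7e-10), and *ENA2* had a log2FC of 1.85. A unique read can start at 11.5% of the positions of *ENA1* and at 0% of those of *ENA2*, yet *ENA2* had 10873 to 13011 counts in the salt libraries. The paper states that only reads with a unique place in the genome were counted, which these *ENA2* counts do not bear out. How reads that match several places were counted is therefore unclear, and the values of both genes, and of *HXT7*, cannot be assigned to 1 gene. *PMA1*, the proton pump that drives most transport across the plasma membrane, fell, with 2024, 1837 and 1814 CPM upon osmostress and 11324, 12418 and 11185 without stress (log2FC -2.62 ± 0.14, SE, adjusted p = 3.25e-10). *PMP2*, a small regulatory subunit of that pump, had 8.98, 9.34 and 24.8 CPM in the salt libraries and 68.7, 50.9 and 62.7 in the unstressed ones, salt replicate 3 being the highest of its group. In all, 4 of 17 genes of sodium and potassium transport rose and 3 fell.

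Of 24 genes of the HOG pathway and its phosphatases 4 rose, 3 fell and 17 were not called, beside 37% called of all genes. *HOG1* had 475.1, 459.4 and 379.9 CPM in the salt libraries and 263.7, 315.1 and 314.2 in the unstressed ones (log2FC 0.56 ± 0.11, SE, adjusted p = 0.000385), under the 2-fold limit. *SHO1*, one of its osmosensors, fell (16.2, 20.7 and 20.7 CPM upon osmostress, 82.2, 70.9 and 71.2 without stress), as did *SSK22*, a kinase of the Sln1 branch (log2FC -3.38). *SSK1*, the response regulator of that branch, rose by a log2FC of 1.33 but was not called when scaled to *ENO1*, and *RCK1*, a kinase gene related to the Hog1 target *RCK2*, by 2.36. *SKO1* and *HOT1*, transcription factors that Hog1 acts on, were not called. *HOT1* had 19.4, 22.1 and 24.9 CPM upon osmostress and 27.1, 19.7 and 19.7 without stress, and the groups of both genes overlapped.

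Stress activators and kinases of the growth pathways were among the altered regulators. *MSN4* had 94.0, 87.6 and 99.8 CPM in the salt libraries and 34.2, 32.4 and 31.6 in the unstressed ones, and its partner *MSN2* had 105.6, 103.0 and 129.7 CPM upon osmostress and 57.0, 49.6 and 48.4 without stress. Their log2FC were 1.52 and 1.13, and scaled to *ENO1* neither was called. Of 28 stress transcription factors 10 rose and 2 fell. *XBP1*, a repressor of cyclin genes, rose by a log2FC of 5.16 ± 0.15 and *USV1* by 4.86 ± 0.21 (SE). *SOK2*, a regulator downstream of protein kinase A, fell (20.4, 19.2 and 19.0 CPM upon osmostress, 59.5, 66.1 and 56.4 without stress). Of 25 genes of protein kinase A and TOR signalling 11 rose and 2 fell. *TPK3*, a catalytic subunit gene of protein kinase A, had 14.1, 16.5 and 17.9 CPM upon osmostress and 35.2, 34.2 and 34.8 without stress. With library totals alone *TPK3* was not called. *YAK1*, a kinase that opposes protein kinase A, rose by 3.06 and *RAS1*, which activates it, fell by 2.29 on the log2 scale. *YAK1*, *GLK1*, *TAT1* and *PHO84* each overlap another annotated gene, so part of their reads may belong to it.

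**Figure D3:**
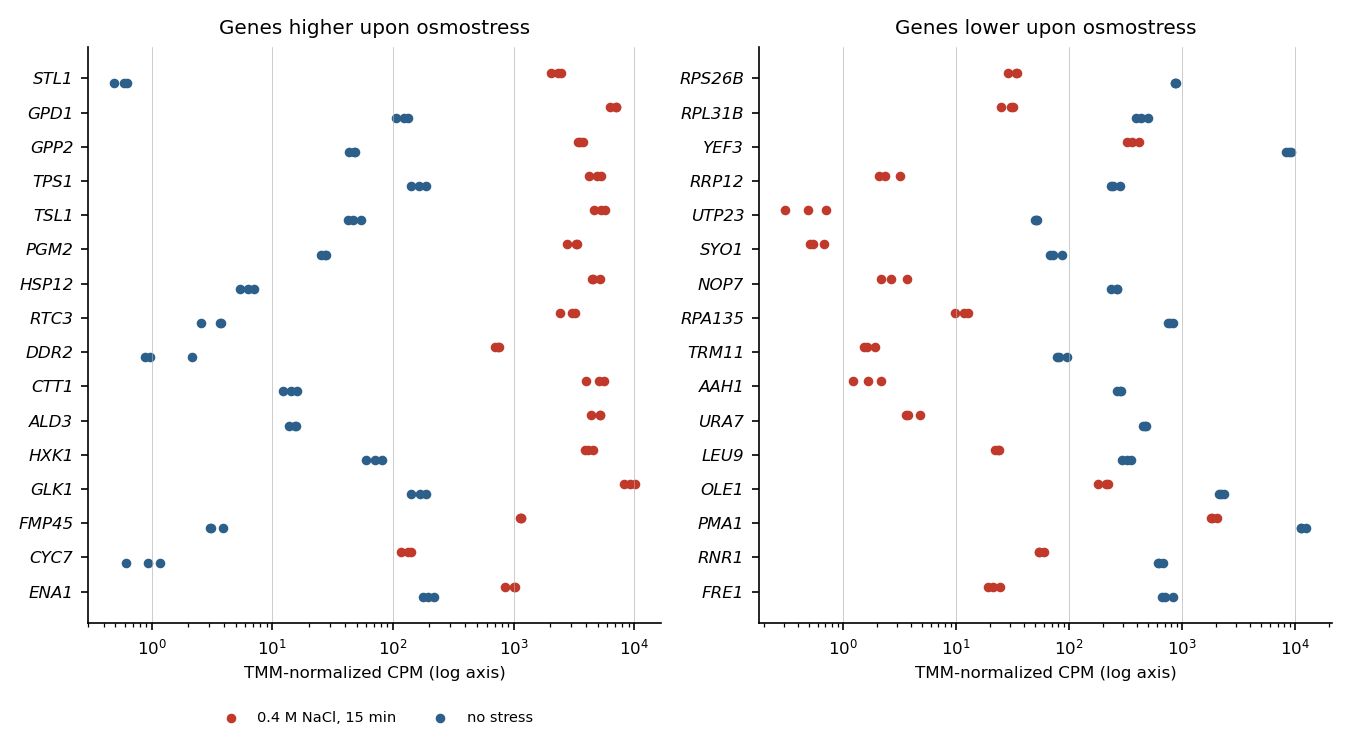
Normalized CPM (log axis) of 32 named genes in the 3 salt libraries (red) and the 3 unstressed libraries (blue), 1 point per library, with genes higher upon osmostress on the left and lower ones on the right. The groups are apart for each gene shown, from *STL1* (2048 to 2454 CPM with salt, 0.49 to 0.621 without) to *FRE1* (19.0 to 24.7 CPM with salt, 661.0 to 834.6 without). Groups that did not overlap were a condition for naming the largest changes and the list members.

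All 56 genes of the small subunit and 80 of 81 of the large subunit of the cytosolic ribosome fell, with median log2FC of -2.50 and -2.49. The lowest were *RPS26B*, with 34.7, 28.9 and 34.0 CPM in the salt libraries and 875.3, 871.0 and 863.6 in the unstressed ones (log2FC -4.74 ± 0.14, SE, adjusted p = 4.54e-13), and *RPL31B*, with 30.4, 24.7 and 32.1 CPM upon osmostress and 499.3, 428.8 and 389.1 without stress. The 2 lists together are the most abundant of those shown here beside glycolysis. The large subunit took 3.23 ± 0.21% of the counts in the salt libraries and 13.8 ± 0.2% in the unstressed libraries, and the small subunit 2.38 ± 0.22% and 9.97 ± 0.21% (SD, n = 3 each). These shares do not depend on the scaling between libraries, though each is a part of the same total. Over the 54 lists the shares did not overlap between the groups for 50, which gives p = 0.1 in an exact two-sided permutation test, the smallest that 3 against 3 can give (0.108 after Benjamini-Hochberg adjustment over the 54).

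**Figure D4:**
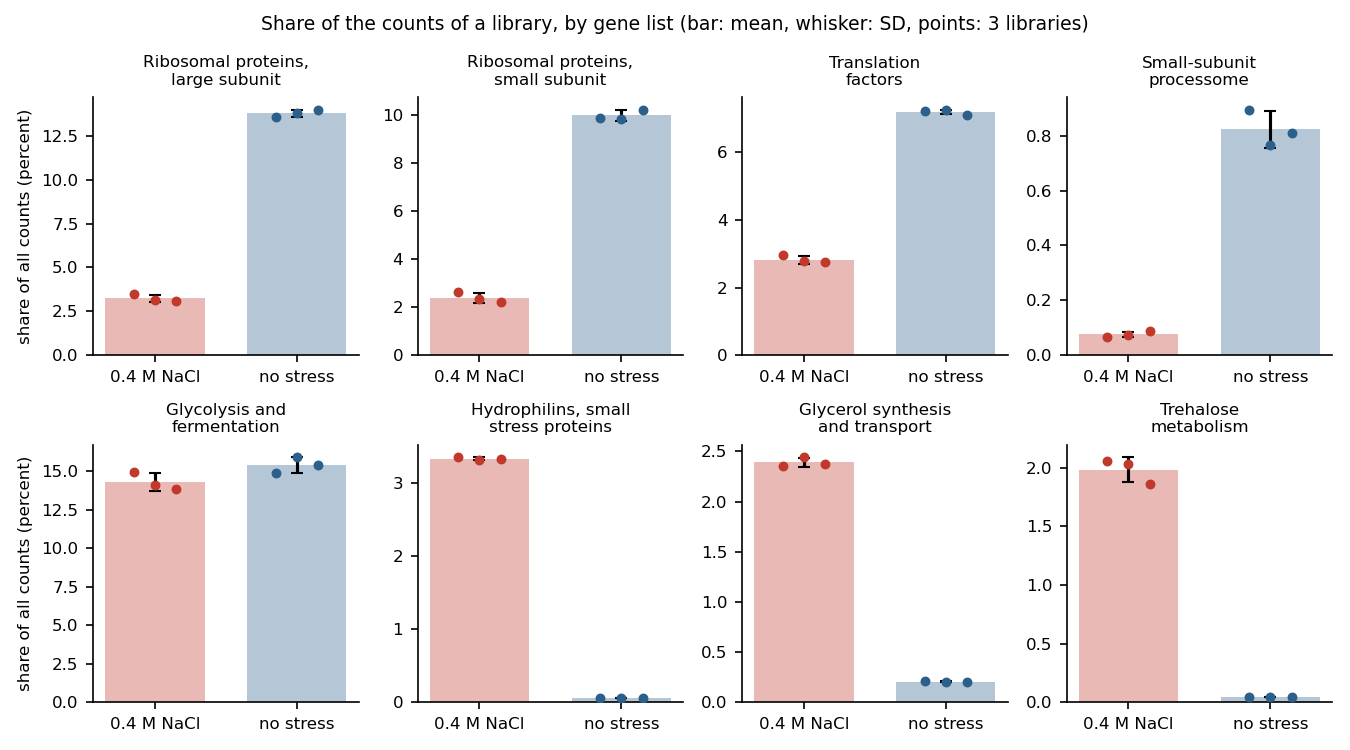
Share of all counts (percent) on the genes of 8 lists, salt libraries on the left and unstressed libraries on the right of each panel (bar: mean, whisker: SD, points: 3 libraries each). The ribosomal lists, the translation factors and the processome take less of the salt libraries, the 3 stress lists take more, and glycolysis overlaps between the groups.

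All 71 genes of the small-subunit processome and its associated factors, which cut and fold the precursor of the small-subunit rRNA, fell with a median log2FC of -3.95. Of 74 assembly factors of the large subunit 73 fell, with a median of -4.25. These 2 lists held 8 of the 10 largest falls. *SYO1*, which carries ribosomal proteins Rpl5 and Rpl11 into the nucleus, had 0.676, 0.515 and 0.548 CPM in the salt libraries and 86.5, 67.5 and 72.1 in the unstressed ones (log2FC -7.00 ± 0.19, SE, adjusted p = 1.64e-13). *UTP23*, a component of the processome, had 0.307, 0.709 and 0.487 CPM upon osmostress and 50.4, 50.9 and 51.6 without stress. *RRP12*, needed for export of both subunits, had 2.34, 3.22 and 2.07 CPM in the salt libraries and 280.2, 246.8 and 234.8 in the unstressed ones, and *NOP7*, of the complex that processes the large-subunit rRNA, had 2.15, 2.64 and 3.65 CPM upon osmostress and 265.7, 236.8 and 262.9 without stress. The helicase genes *HCA4* and *DRS1* had log2FC of -6.60 and -6.38. These genes were picked from those whose groups did not overlap, and they had 11 to 60 counts in the highest salt library.

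The promoters of the assembly factors were marked by PAC (GATGAG on either strand) and RRPE (AAAATTTT, which reads the same on both strands). In the 500 bases before the start codon PAC was present for 63 of 71 processome genes (88.7%) and 65 of 74 large-subunit factors (87.8%), beside 28.3% of all promoters, and RRPE for 74.6% and 77.0%, beside 12.7%. For the genes of ribosomal proteins these shares were close to the background: PAC was present for 21.4% of the small-subunit and 22.2% of the large-subunit genes, and RRPE for 7.14% and 16.1%. Of 357 genes with both motifs 67.2% fell, with a median log2FC of -2.01, against 22.3% of 1265 genes with PAC alone, 34.2% of 371 with RRPE alone and 11.4% of 3733 with neither. Each of the 10 genes with the largest falls had PAC and 9 had RRPE. The windows of 4 of them are shown because they hold copies in tandem or both motifs close by, printed 5′ to 3′ in the direction of the gene from the R64 genome, with 1 match to PAC (which reads CTCATC on the other strand) or RRPE in capitals:
SYO1, PAC, chrIV:340290-340317, - strand: tctcatctcatCTCATCtcatctcatct
MRD1, PAC, chrXVI:751994-752021, - strand: ttagagctcatCTCATCtcatctcatcg
HCA4, PAC, chrX:383737-383764, + strand: cttaagctcatCTCATCtcatctcatcc
NOP7, PAC, chrVII:695282-695309, + strand: ttttgcgatgaGATGAGatgagaaaaaa
SYO1, RRPE, chrIV:340310-340339, - strand: ctcttattcagAAAATTTTtcatctcatct
MRD1, RRPE, chrXVI:752019-752048, - strand: tataaaatgaaAAAATTTTatggaaattta
NOP7, RRPE, chrVII:695302-695331, + strand: agaaaaaatgaAAAATTTTggaaggttaat
Neighbouring matches in these runs share 1 base, and counted so *SYO1* had 6 PAC matches, *MRD1* 5, *HCA4* 4 and *NOP7* 3. In *SYO1* the first PAC match starts 182 bases before the start codon and the RRPE match 194 bases before it.

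**Figure D5:**
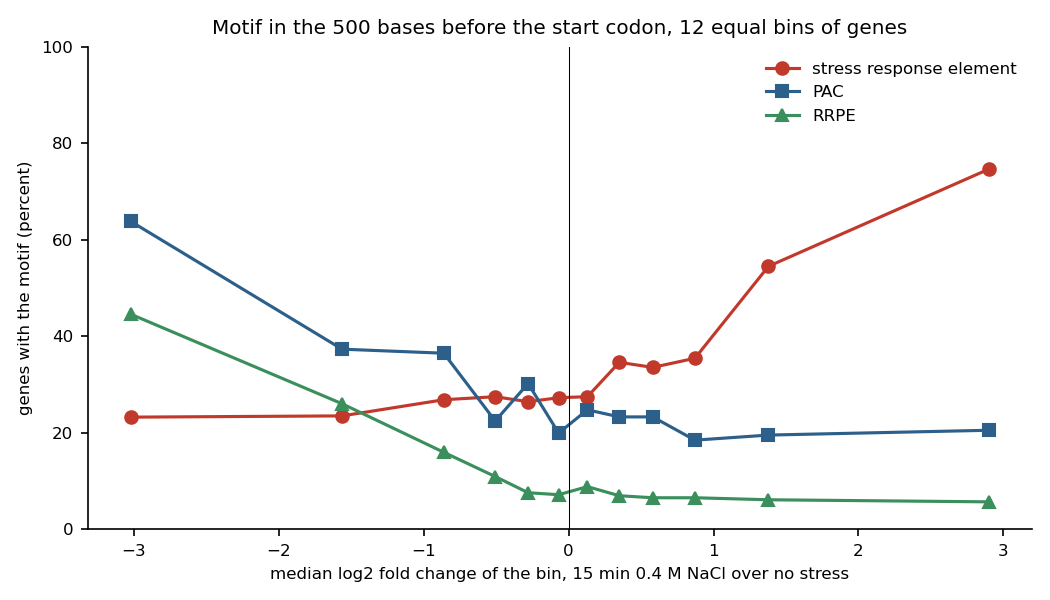
Share of genes (percent) with each motif in the 500 bases before the start codon, for 12 bins of 477 or 478 genes ordered by log2FC (salt over no stress) and placed at the median log2FC of the bin. The stress response element goes up to 74.7% in the highest bin, while PAC and RRPE reach 63.8% and 44.6% in the lowest.

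Regulators of these genes were few and did not move as 1 group. Of 10 genes 1 rose and 3 fell. *TOD6*, a repressor that binds PAC, had 1.48, 2.19 and 1.34 CPM in the salt libraries and 95.3, 83.7 and 77.3 in the unstressed ones (log2FC -5.68 ± 0.19, SE, adjusted p = 1.47e-12). *IFH1*, the coactivator of ribosomal protein genes, fell (4.92, 6.25 and 10.6 CPM upon osmostress, 26.0, 20.1 and 24.6 without stress), and *CRF1*, its corepressor counterpart, rose (7.87, 8.57 and 9.61 CPM in the salt libraries, 1.41, 2.12 and 1.35 in the unstressed ones). *SFP1*, an activator of both ribosomal branches, had a log2FC of -0.10 and an adjusted p of 0.314.

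RNA polymerase I, which makes the large rRNA precursor, and its initiation factors fell in 10 of 15 genes, led by *RPA135*, the second-largest subunit (12.8, 11.8 and 9.80 CPM upon osmostress, 750.4, 836.5 and 784.3 without stress), and *RPA43* (log2FC -5.73). RNA polymerase III, which makes tRNA and 5S rRNA, and its factors fell in 10 of 18, with *RPC25* lowest (2.15, 2.00 and 2.07 CPM in the salt libraries, 33.6, 37.8 and 46.8 in the unstressed ones). None of 7 genes of RNA polymerase II alone was called (0 of 7), with log2FC between -0.80 and 0.17, and none of 21 of its elongation factors (0 of 21). At an unadjusted p of 0.05 in edgeR, 0 genes of the polymerase were higher and 3 lower, 2 elongation factors were higher and 6 lower, and DESeq2 called 0 in both lists. *SPT4*, tagged in this strain, had 21.1, 19.8 and 18.2 CPM upon osmostress and 14.6, 17.3 and 12.7 without stress (log2FC 0.40 ± 0.18, SE, adjusted p = 0.0579).

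The mRNAs of translation genes fell beside those of the ribosome. Of 40 translation factors 31 fell and 2 rose, with a median log2FC of -1.51, and the list held 2.83 ± 0.11% of the counts upon osmostress and 7.19 ± 0.07% without stress (SD, n = 3 each). *YEF3*, the fungal elongation factor 3 gene, had 410.7, 362.5 and 325.5 CPM in the salt libraries and 8337, 9162 and 8733 in the unstressed ones (log2FC -4.58 ± 0.18, SE, adjusted p = 1.11e-11), and its paralogue *HEF3* rose (30.4, 31.4 and 32.1 CPM upon osmostress, 10.2, 10.4 and 10.5 without stress). Cytosolic tRNA synthetases fell in 20 of 22 genes and tRNA modification in 30 of 38. *TRM11*, a tRNA guanosine methyltransferase gene, had 1.54, 1.93 and 1.64 CPM upon osmostress and 96.1, 78.6 and 80.8 without stress. The mitochondrial ribosome did not follow: of 73 genes 0 fell and 1 rose (*MRP8*, log2FC 2.60), with a median of 0.07 that changed sign when scaled to *ENO1*.

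Genes for the synthesis of nucleotides and amino acids were also lower, with exceptions. Of 36 genes of purine and pyrimidine synthesis and salvage 22 fell and 3 rose. *AAH1*, the adenine deaminase gene of purine salvage, had the largest fall of the data set, with 1.66, 2.19 and 1.22 CPM in the salt libraries and 265.5, 282.4 and 286.1 in the unstressed ones (log2FC -7.36 ± 0.26, SE, adjusted p = 2.37e-12). *URA7*, the main CTP synthase gene, had 3.75, 4.77 and 3.59 CPM upon osmostress and 469.1, 482.2 and 454.6 without stress, whereas *URA8*, the second CTP synthase gene, rose by a log2FC of 1.23 with 342.9, 313.9 and 279.6 CPM in the salt libraries and 121.4, 146.4 and 131.0 in the unstressed ones, though it was not called when scaled to *ENO1*. Of 64 genes of amino acid synthesis 27 fell and 1 rose. *LEU9*, of leucine synthesis, had 24.0, 23.4 and 22.1 CPM in the salt libraries and 294.9, 350.7 and 322.2 in the unstressed ones, and *LYS4*, of lysine synthesis, had a log2FC of -3.09. The gene that rose was *ARO9* (1327, 1345 and 1195 CPM upon osmostress, 45.3, 54.2 and 50.4 without stress), which encodes an aminotransferase of aromatic amino acid breakdown and not a step of synthesis alone. *SAM1*, of S-adenosylmethionine synthesis, fell by 3.62 on the log2 scale, and 4 of 22 genes of methionine and sulphur assimilation fell and 2 rose.

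At the cell surface the membrane domains called eisosomes stood apart from lipid and wall synthesis. Of 14 genes of eisosomes and the SUR7 family 11 rose and 0 fell, with a median log2FC of 1.84. *FMP45*, of the SUR7 family, had 1140, 1144 and 1151 CPM in the salt libraries and 3.03, 3.88 and 3.12 in the unstressed ones, and its relative *YNL194C* had 535.3, 530.5 and 469.0 CPM upon osmostress and 0.592, 0.725 and 0.551 without stress. Fatty acid synthesis fell in 7 of 15 genes and rose in 1. *OLE1*, the only fatty acid desaturase gene of yeast, had 222.8, 213.9 and 180.0 CPM upon osmostress and 2096, 2342 and 2199 without stress (log2FC -3.43 ± 0.14, SE, adjusted p = 1.28e-11). Ergosterol synthesis fell in 8 of 26, with *ERG3* lowest (log2FC -2.94). The 1 gene of that list called higher, *ERG28*, had a log2FC of 1.005 and fell short of the limit in 8 alternatives, among them DESeq2 (0.99). Genes of cell wall polymers fell in 12 of 28, among them *GAS1*, a glucan-remodelling enzyme gene (748.8, 726.5 and 669.9 CPM in the salt libraries, 3240, 3509 and 3270 in the unstressed ones). Cell wall glycoproteins were divided, with 3 higher and 6 lower of 21: *CWP1* rose (4140, 4104 and 3536 CPM upon osmostress, 187.8, 227.8 and 207.3 without stress) and *CIS3* fell (305.0, 289.3 and 266.0 CPM upon osmostress, 877.3, 1114 and 1111 without stress).

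Of 27 cyclins and cell cycle regulators 9 fell and 0 rose, with a median log2FC of -0.80. The G1 cyclin gene *CLN2* had 48.6, 41.4 and 49.6 CPM in the salt libraries and 122.0, 114.5 and 105.3 in the unstressed ones (log2FC -1.29 ± 0.14, SE, adjusted p = 1.12e-06), and with library totals alone it was under the 2-fold limit. *FAR1*, an inhibitor of G1 cyclin kinases, and *NRM1*, a repressor of G1/S genes, fell by 2.53 and 2.66 on the log2 scale. *SIC1*, the inhibitor that Hog1 is known to stabilise as a protein, had a log2FC of 0.22 and an adjusted p of 0.0584. Of 26 genes of DNA replication and nucleotide reduction 9 fell and 1 rose. *RNR1*, the main large subunit of ribonucleotide reductase, had 59.6, 54.6 and 54.7 CPM upon osmostress and 607.0, 678.4 and 629.7 without stress, and *RNR3*, its minor form, rose by a log2FC of 1.35 and was not called when scaled to *ENO1*. Histone genes fell in 2 of 10 (*HTA1* and *HHT1*), and neither was called with library totals alone.

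Of 24 genes of the mating pathway 8 fell and 0 rose, among them *MFA2*, which encodes the **a**-factor pheromone (74.6, 61.5 and 71.0 CPM upon osmostress, 306.8, 388.5 and 338.4 without stress). *FRE1*, a metal reductase gene of iron and copper uptake, had 21.2, 19.0 and 24.7 CPM in the salt libraries and 834.6, 704.5 and 661.0 in the unstressed ones, and *FET4*, a low-affinity iron transporter gene, had a log2FC of -3.21. On the same iron list *HMX1* and *TIS11* rose, with log2FC of 2.01 and 1.23, though *TIS11* was not called when scaled to *ENO1*. *PHO84*, the high-affinity phosphate transporter gene, had 35.6, 40.9 and 43.6 CPM upon osmostress and 304.0, 306.3 and 297.4 without stress, and *PHO3*, an acid phosphatase gene, had a log2FC of -3.90. *PUT4*, the proline permease gene, rose (301.1, 290.0 and 264.3 CPM in the salt libraries, 2.00, 3.37 and 1.53 in the unstressed ones), and *TAT1*, a permease of several amino acids, fell by 2.30 on the log2 scale. Counts over these lists were 2 higher and 3 lower of 22 for iron, 1 and 7 of 20 for phosphate and 5 and 2 of 22 for nitrogen sources and permeases. The falls were 13.6% of the iron list, 35% of the phosphate list and 9.09% of the nitrogen list, beside 18.7% of all genes tested. The largest change of the phosphate list was a rise, that of *PHM8* (44.5, 47.2 and 57.7 CPM upon osmostress, 1.41, 1.81 and 1.59 without stress).

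Some complexes had no called member. Of 15 genes of the vacuolar ATPase 0 were called by edgeR and 0 by DESeq2, 1 being higher and 8 lower at an unadjusted p of 0.05, and of 34 spliceosome genes 0 rose and 2 fell, 1 of them *PRP43* (log2FC -3.14), a helicase that also acts in ribosome assembly. Of 28 genes of translocation into the endoplasmic reticulum and N-glycosylation 1 rose and 6 fell. Of 16 genes of the cell wall integrity pathway 3 rose and 0 fell, led by *ROM1*, an activator of Rho1 (45.3, 53.2 and 75.9 CPM in the salt libraries, 7.91, 7.15 and 6.73 in the unstressed ones). Of 24 genes of sphingolipid metabolism 4 rose and 2 fell. The medians of these lists were between -0.31 and 0.26, and each of them changed sign under library totals or *ENO1* scaling, so no direction is given for them.

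Genes that are off during growth in rich medium were among those that rose. Of 27 tested genes of meiosis and sporulation 10 rose and 4 fell, with *SPS100*, of the spore wall, highest (119.4, 133.2 and 137.1 CPM upon osmostress, 1.41, 1.04 and 2.39 without stress). A non-coding RNA gene overlaps *SPS100*, and no source used here says whether counting was by strand. In all, 31 genes that rose had at most 3 counts in each unstressed library. Of these *YCL046W* had 4.73, 3.74 and 2.07 CPM in the salt libraries and 0 in each unstressed one, at least 18.8-fold higher when the unstressed level is set at 3 counts per library, and *YCL041C* had 8.42, 6.31 and 5.36 CPM upon osmostress, at least 35.8-fold higher. Neither has an entry in RefSeq, so overlaps and unique positions were not computed for them, and their reads may belong to another gene. *YCL048W-A*, which has an entry, 100% unique positions and no overlap, was at least 149.8-fold higher on the same floor. It had 30.6, 27.8 and 25.6 CPM upon osmostress. Only 6 genes fell to at most 3 counts in every salt library.

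Whether a gene rose or fell went with its unstressed level. Among the quartile of genes with the lowest unstressed CPM per kb of coding length 32.05% rose and 6.63% fell, and among the quartile with the highest 7.68% rose and 36.8% fell, beside 18.3% and 18.7% of all genes tested. Levels without stress also enter the fold change, so this is a description. Coding length gave little: medians over its quartiles were between -0.03 and 0.07. Of 217 genes within 20 kb of a chromosome end 18.0% rose and 5.99% fell. Of 47 small nucleolar and small nuclear RNA genes tested 23 fell and 0 rose, and these RNAs lack the long poly(A) tail that the libraries select for.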

How the data were processed

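Poly(A)-selected RNA of 12 libraries, 3 per strain and condition, was sequenced by the authors, and the deposited table holds raw counts per gene, not normalized. Per the submitters' processing notes TopHat2 2.1.0, featureCounts 1.5.1 and DESeq2 1.14.1 were used on the sacCer3 genome. Whether reads were counted by strand is not given in the sources used here.

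From the deposited counts, 6040 of 7126 genes passed filterByExpr and were fitted with edgeR 4.0.16 (TMM scaling, quasi-likelihood test, 12 libraries, 4 group coefficients) in R 4.3.3, with Benjamini-Hochberg adjustment over all 6040. A call needed an adjusted p under 0.05 and a 2-fold change. In counts simulated with the same dispersion for all genes, 99% of 100 genes at a log2FC of 1.5 and 100% of 100 at 2 were recovered. Among the unchanged genes there was 1 false call, with 5983 genes run in all. Far fewer genes were changed there than the 37% called in the data, with rises and falls in equal number and no shift in scaling. These rates therefore do not carry over to the data. Precision is set by depth and by 3 replicates (median SE 0.145). Permutation tests of shares were exact and two-sided. Named genes were the 10 largest changes in each direction at 10 CPM or more, the 2 largest in each direction of each list, members of divided pairs, 6 genes at the floor of 3 counts, and key genes. The largest changes, among all genes and in each list, were taken only from called genes whose salt and unstressed libraries did not overlap. Members and lists were chosen with earlier results of these data known. Motifs, and the share of positions of a gene where a read of 50 bases would be unique, were computed on the RefSeq R64 genome with Python 3.11.15. Alternatives were DESeq2 1.42.0, other scalings, count filters, fold limits, a replicate block, wild type libraries alone and each replicate left out. Genes below the count filter (1086) were left out. Some named genes are not reported here.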

Additional observations from a re-analysis of the deposited data

Results flagged for a closer look

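The response to salt was also fitted in the Spt4-AA strain of the same series, and the difference of the responses (Spt4-AA minus wild type, log2, edgeR interaction term, Benjamini-Hochberg adjusted p under 0.05) was read for the 10 largest rises and falls and the key genes. Of the 6040 genes tested 26% had such a difference. The largest changes were chosen for their size in the same wild type libraries that enter the difference, which favours smaller responses in Spt4-AA, so nothing is read from the direction of these values as a group.

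Rises that were smaller in Spt4-AA were those of *TKL2* (-1.44), *FMP45* (-1.02), *STL1* (-1.01), *CTT1* (-0.85), *NTH1* (-0.71) and *MSN4* (-0.69). The differences of *RPN4* and *SIC1*, which were not called in wild type, were -0.72 and -0.51. Rises of *HSP12* and *GPP2* were larger in Spt4-AA, by 1.81 and 0.85.

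Falls were smaller in Spt4-AA for *PMA1* (0.58), *CLN2* (0.69) and the following genes of ribosome assembly and nucleotide synthesis. The differences were 1.20 for *MRD1*, 1.53 for *HCA4*, 1.68 for *RRP12*, 1.75 for *ENP2*, 1.89 for *NOP7*, 2.20 for *UTP23* and 2.21 for *DRS1*. They were 2.23 for *AAH1*, 2.84 for *URA7* and 3.04 for *SYO1*.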

How the results depend on the processing

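The counts of genes altered, higher and lower upon osmostress in the wild type moved by over 1.5 times under 2 settings. With any fold change accepted they were 4248, 2200 and 2048, and scaled to *ENO1* 657 genes were higher and 1817 lower, where the scaling itself moved the median of all genes. With library totals alone 1615 were higher and 853 lower. The number altered was 2265 with DESeq2, 2227 with RLE size factors, 2313 with no count filter, 2041 with at least 10 counts per library, 2191 from wild type libraries alone and 1744 in a test against 2-fold. Leaving out 1 replicate gave 2215 to 2277 altered, 1090 to 1121 higher and 1111 to 1170 lower. The replicate numbers did not pair the samples, with correlations of the same-numbered deviations of -0.574, 0.241 and -0.239, and not every sample correlated best with its own number. With the replicate block 2234 genes were altered, 1107 higher and 1127 lower, and 2200 were altered with the block in wild type libraries alone.

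The share of counts on glycolysis and fermentation, -1.09 percentage points as reported (salt minus no stress), was 1.54 without the 10 genes with the most counts, and the cause was not tested. Of 54 list medians, 7 changed sign with library totals, 10 when scaled to *ENO1* and 4 when a replicate was left out, all of them under 0.44 in size. Scaling to *ENO1* lost the calls of 9 named genes and library totals those of 16. *GPX2*, *SUT1*, *DAL80* and *ERG28* lost theirs when some single libraries were left out, at sizes given for *GPX2* above, -0.95 for *SUT1* and 1.54 for *DAL80* without unstressed replicate 2. *ERG28* lost its call without salt replicate 1 (0.97) or 2 (0.96) or unstressed replicate 1 (0.98) or 2. Genes with few counts limit the list of floors, where fold changes are lower bounds.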
